A study of Mus musculus with 6 samples.

Results

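The genes described are 10 leukocyte integrins and adhesion molecules, chosen by name as the rows of the deposited gene table whose symbol was Itgb2, Itgal, Itgam, Itgax, Itgad, Icam1, Icam2, Vcam1, Sele or Selp. All 10 were found among the 60832 genes listed. They were measured by RNA-seq in LSECs, the endothelial cells that line the liver sinusoids, taken from mice whose livers bore CRCLM xenografts of the human colorectal cancer line HCT116. The hosts were male BALB/c-Nu mice, a nude strain that lacks a thymus and has few T cells. They were 4 to 6 weeks old when obtained, and their age when the cells were taken is not given. Bevacizumab-resistant HCT116 xenografts, the source of 3 libraries, were made with bevacizumab, an antibody against VEGF, at 10 mg/kg for 7 weeks by the study's Methods and for 42 days by its Results. The other 3 libraries were of LSECs from bevacizumab-sensitive xenografts. The Methods give IgG to a vehicle group, and the labels do not say whether the sensitive xenografts were that group. The cells of all 6 libraries came from mice with that same xenograft line, were taken with anti-CD146 beads and were cultured for 24 h. Nothing in the labels says whether a library was 1 mouse or a pool, so the p-values measure the spread between these libraries. The comparison asks whether adhesion genes of the LSEC fraction differed between resistant and sensitive xenografts.

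The beta2 integrins are the adhesion receptors of white blood cells. Each is a pair of 1 alpha subunit, encoded by Itgal (CD11a), Itgam (CD11b), Itgax (CD11c) or Itgad (CD11d), and the shared beta subunit encoded by Itgb2 (CD18). They bind ICAM proteins on vessel walls and, for the Itgam and Itgax pairs, the complement fragment iC3b, which Kupffer cells and neutrophils use to hold on to coated particles. Vcam1 is bound by the integrin pair of Itga4 and Itgb1, among others, and is carried by activated endothelium and by Kupffer cells. Sele and Selp encode E-selectin and P-selectin, which slow passing leukocytes on activated endothelium, and P-selectin is also stored in platelets. The sinusoids of the liver are known for catching leukocytes with little help from selectins.

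Total counts on genes lay between 17599326 and 20726684 per library. CPM is given here on TMM-scaled library sizes, on which 3 counts, the limit that a count of 0 allows for counting error alone, correspond to 0.136 to 0.195 CPM. Replicate 2 of the sensitive group stood apart, with a Pearson r across genes of 0.860 to 0.901 with the other libraries, where the other 10 pairs had 0.954 to 0.974. The Methods report the isolated LSECs as CD146-positive at high purity by flow cytometry, a reading of protein. By RNA, the labelled cell type was only partly borne out by markers. The 16 macrophage and Kupffer cell markers summed to between 23321 and 42384 CPM in the 6 libraries, led by Marco, Cd5l and Lyz2, and the 12 pan-endothelial markers, led by Cdh5, Eng and Pecam1, to between 76.6 and 514 CPM. The 11 LSEC markers listed, led by Stab1, Lyve1 and Stab2, summed to between 636 and 1187 CPM. Most of this was Stab1, at 496 to 778 CPM. Mcam, which encodes the CD146 used for isolation, was at 0.308 to 3.87 CPM. In such bulk libraries fewer cells of a type and less RNA per cell cannot be told apart.

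The 10 genes covered a wide range of levels. By FPKM, which divides counts by gene length and so allows genes to be set against each other, Itgb2 was highest, with a mean of 283 over the 6 libraries and a range of 121 to 328. Vcam1 followed at 113 FPKM, between 40.5 and 214. The alpha subunits Itgam at 35.4 and Itgal at 15.5 FPKM came next, ahead of Icam1 at 7.65 and Icam2 at 4.13 FPKM. Selp at 1.08, Itgax at 0.854, Sele at 0.556 and Itgad at 0.0356 FPKM closed the order. Each neighbouring pair was compared on log2(FPKM + 0.1) with an exact sign-flip permutation test over the 6 libraries, two-sided, whose smallest possible p is 0.03125. That value, or 0.0563 after adjustment over the 9 neighbouring pairs, was reached by 5 pairs ordered alike in 6 of 6 libraries, those of Itgb2 over Vcam1, Vcam1 over Itgam, Itgam over Itgal, Itgal over Icam1 and Icam2 over Selp. No adjusted p was under 0.05. Icam1 exceeded Icam2 in 5 of 6 libraries and Sele exceeded Itgad in 5 of 6, each with an exact p of 0.0625. The order of Selp, Itgax and Sele did not differ beyond the spread, with Selp over Itgax in 4 of 6 libraries (exact sign-flip p = 0.625) and Itgax over Sele in 4 of 6 (exact sign-flip p = 0.281). By mean CPM, with no length taken into account, Vcam1 and Itgb2 changed places.

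**Figure D1:**
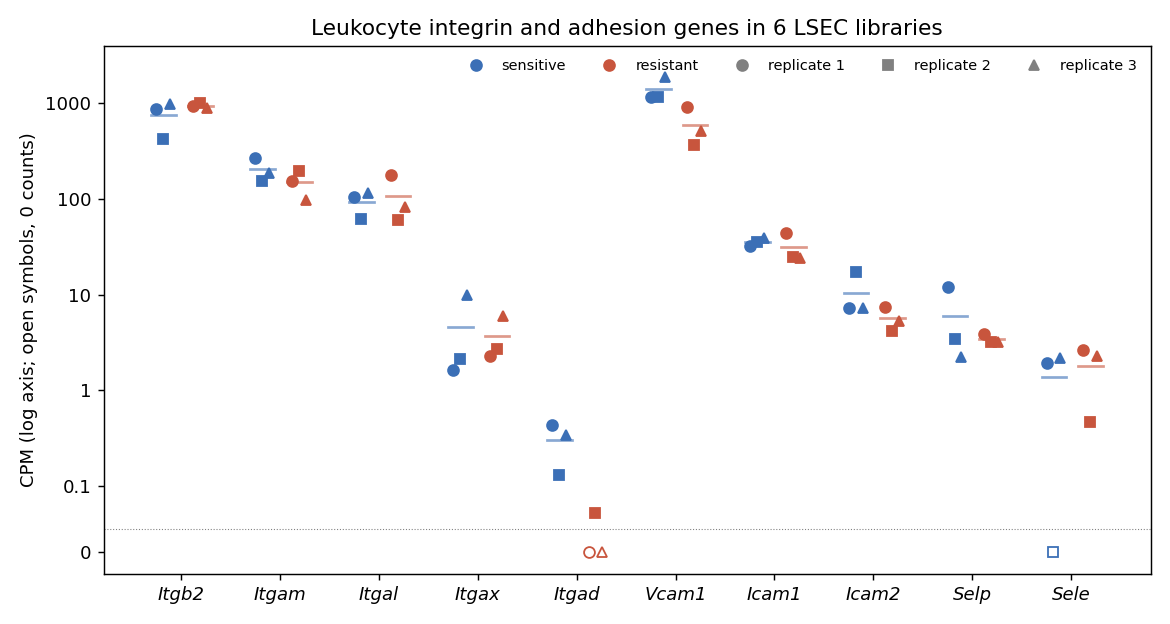
CPM on a log axis of the 10 genes in 3 sensitive (blue) and 3 resistant (red) libraries, with the symbol marking the replicate, short lines the group means and open symbols at the bottom a count of 0. Vcam1 is the one gene besides the sparsely counted Itgad whose 3 resistant libraries, at 365 to 919 CPM, all lie below the 3 sensitive ones. The mean of Itgad in the resistant group, which rests on 1 count, is not drawn.

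Itgb2, the common beta2 subunit (chromosome 10, 77530252 to 77565708, + strand, GRCm38), was abundant in every library. It was at 868, 421 and 999 CPM in sensitive replicates 1, 2 and 3, and at 932, 1017 and 894 CPM in resistant replicates 1, 2 and 3. Sensitive replicate 2 was the low value and the other 5 libraries lay close together, so that the groups overlapped. The means were 763 ± 303 CPM (SD, n = 3) and 948 ± 62.9 CPM (SD, n = 3). The log2 fold change, resistant over sensitive, was 0.31 with a standard error of 0.34 and a 95% interval of -0.48 to 1.11 in edgeR's quasi-likelihood test (adjusted p = 0.940). Without sensitive replicate 2 it was 0.013.

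The alpha subunit genes Itgam (128062640 to 128118491), Itgax (128129547 to 128150657) and Itgad (128154376 to 128223816) follow each other on the + strand of chromosome 7 (GRCm38), with Itgal (127296260 to 127335138) on the same strand of that chromosome. Although neighbours, Itgam and Itgax stood far apart in level, with Itgam FPKM 15.7 to 159 times that of Itgax. The 250 bases before their RefSeq start sites (GRCm38.p6) are shown to set this pair side by side, 5′ to 3′. Capitals mark the letters GAGGAA on either strand, the core bound by PU.1, a transcription factor of myeloid cells.
Itgam, chr7:128062390-128062639, + strand: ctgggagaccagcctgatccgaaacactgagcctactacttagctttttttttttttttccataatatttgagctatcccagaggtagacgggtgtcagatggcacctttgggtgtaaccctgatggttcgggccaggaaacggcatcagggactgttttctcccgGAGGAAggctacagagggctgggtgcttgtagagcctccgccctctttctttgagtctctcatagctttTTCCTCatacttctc
Itgax, chr7:128129300-128129549, + strand: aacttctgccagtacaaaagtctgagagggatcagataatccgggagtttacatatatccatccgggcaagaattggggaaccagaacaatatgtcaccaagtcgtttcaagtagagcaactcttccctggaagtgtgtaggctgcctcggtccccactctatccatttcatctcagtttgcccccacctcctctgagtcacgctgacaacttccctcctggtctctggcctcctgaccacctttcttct
With the 50 bases after the start site included, GAGGAA was found in Itgam at 84 bases before the start on the gene's strand and at positions -15 and 33 on the opposite strand, and was not among the letters of the Itgax window. Of 32851 promoters of the same length, 28.3% held these letters, so that a match is a description of the sequence and no evidence of binding.

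Itgam, the alpha subunit of complement receptor CR3 on macrophages and neutrophils, was at 271, 154 and 188 CPM in sensitive replicates 1, 2 and 3. In resistant replicates 1, 2 and 3 it was at 154, 195 and 98.4 CPM. The sensitive libraries held the highest and the resistant ones the lowest value, with overlap between them. The means were 205 ± 60.2 and 149 ± 48.3 CPM (SD, n = 3 each), and the log2 fold change was -0.46 with a standard error of 0.33 and a 95% interval of -1.22 to 0.31 (edgeR quasi-likelihood test, adjusted p = 0.940). Itgal, the alpha subunit of LFA-1 on lymphocytes and other leukocytes, was at 105, 61.5 and 116 CPM in the sensitive and at 177, 60.4 and 81.6 CPM in the resistant libraries, in replicate order. Resistant replicate 1 was the high value, and without it the log2 fold change went from 0.18, with a standard error of 0.44, to -0.40.

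Itgax, the alpha subunit known as a marker of dendritic cells and of some macrophages, was low. It was at 1.63, 2.14 and 9.89 CPM in sensitive and at 2.27, 2.72 and 6.0 CPM in resistant replicates 1, 2 and 3. In both groups the third library was the high one, and the groups overlapped. Its log2 fold change of -0.32 had a 95% interval of -2.14 to 1.51, and turned to 0.97 without sensitive replicate 3. Itgad, the subunit carried by some splenic and tissue macrophages, was near the limit of detection. It had 9, 2 and 7 counts in the sensitive libraries, of which the 2 counts of replicate 2 lie under the limit of 3 counts, and 0, 1 and 0 counts in the resistant libraries. Summed over each group and scaled by library size this was 18 against 1 count, a ratio of 19.4 with a 95% interval of 3.06 to 807 that covers counting error only. No resistant library reached the lowest sensitive one (exact permutation test of CPM, two-sided, p = 0.1, the smallest that 3 against 3 libraries allow). Itgad did not pass the filter on low counts and was not tested across all genes. The transcripts of Itgax and Itgad share 512 of the 4536 sequences of 31 bases in Itgad (11.3%). No other pair of the 10 genes shared more than 2. At the read length given in the Methods, Itgax and Itgad share 143 of the 4605 sequences in Itgad (3.11%). Reads from those longer stretches may be counted for either gene.

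The mix of alpha subunits that could pair with Itgb2 was read as each gene's share of their summed FPKM. Itgam made up 76.8%, 75.8% and 65.5% in the sensitive and 52.8%, 79.8% and 58.9% in the resistant libraries, in replicate order. Itgal took most of the rest, with 22.6%, 23.1% and 30.8% against 46.4%, 19.0% and 37.3%. Itgam was the larger share in 6 of 6 libraries, and Itgax never exceeded 3.76%. The mean Itgam share was 72.7 ± 6.24% in sensitive and 63.9 ± 14.2% in resistant libraries (SD, n = 3 each), a difference smaller than the spread (exact permutation test, two-sided, p = 0.4, where the smallest possible is 0.1). Itgb2 FPKM exceeded the summed alpha FPKM in every library, by 4.04, 3.40 and 5.72 times in the sensitive and by 5.25, 6.87 and 8.81 times in the resistant group. This ratio, chosen after the data were seen, overlapped between the groups, with means of 4.39 ± 1.20 and 6.98 ± 1.78 (SD, n = 3 each; exact permutation p = 0.2).

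**Figure D2:**
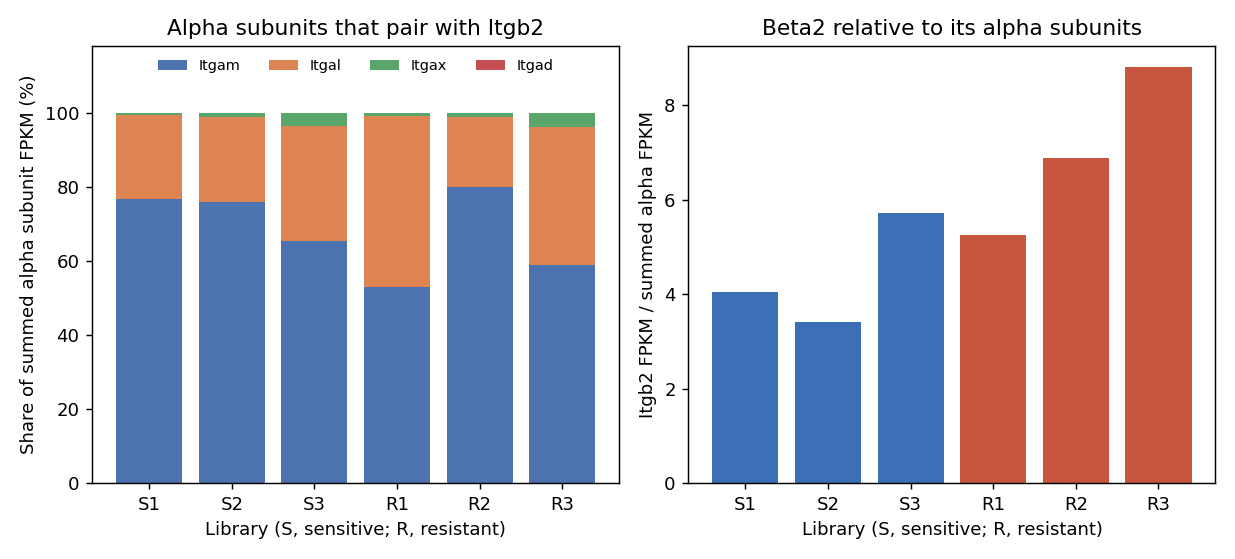
Left, share (%) of Itgam, Itgal, Itgax and Itgad in their summed FPKM in each library, S1 to S3 sensitive and R1 to R3 resistant. Right, Itgb2 FPKM divided by that sum, a ratio without unit. Itgam is the largest share in all 6 libraries, between 52.8% and 79.8%, and the ratio runs from 3.40 to 8.81 with the groups overlapping.

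Of the endothelial counter-receptors, Vcam1 (chromosome 3, 116109949 to 116129688, - strand, GRCm38) was the most abundant and differed most in level between the groups. It was at 1164, 1157 and 1911 CPM in sensitive replicates 1, 2 and 3. In resistant replicates 1, 2 and 3 it was at 919, 365 and 510 CPM. Every resistant library was lower than every sensitive one. The means were 1411 ± 433 and 598 ± 287 CPM (SD, n = 3 each), a 2.36-fold lower level in the resistant libraries. Which cells of the LSEC fraction carried Vcam1 was not tested. The log2 fold change was -1.24 with a standard error of 0.40 and a 95% interval of -2.19 to -0.29. This did not pass the threshold, with an adjusted p of 0.940 in edgeR's quasi-likelihood test, an unadjusted p of 0.0178 and rank 122 by p among the 15474 genes tested. The exact permutation test over the libraries gave p = 0.1, the smallest it can give. The adjusted p was 0.355 to 1.000 over the alternatives, the former with DESeq2. Leaving out 1 library kept the log2 fold change between -1.68 and -0.95. The unadjusted p of edgeR's test was then 0.0552, 0.0584 and 0.0623 without sensitive replicate 3, resistant replicate 2 and resistant replicate 3. It was 0.0256, 0.0201 and 0.00407 without sensitive replicate 1, sensitive replicate 2 and resistant replicate 1.

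Vcam1 and Itgb2 were also set against each other in each library, as a description that holds the Vcam1 difference given above and is no further evidence of it. Vcam1 CPM per Itgb2 CPM was 1.34, 2.75 and 1.91 in sensitive and 0.986, 0.359 and 0.570 in resistant replicates 1, 2 and 3, a ratio chosen after the data were seen. Every sensitive library had a higher ratio than every resistant one, with means of 2.00 ± 0.709 and 0.638 ± 0.319 (SD, n = 3 each). Itga4, which encodes an alpha subunit that binds Vcam1, was picked after its values were seen. It was at 114, 36.4 and 201 CPM in the sensitive and 136, 66.2 and 83.3 CPM in the resistant libraries. Its log2 fold change was -0.30 with a standard error of 0.58.

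Icam1 and Icam2, the ligands of the Itgal and Itgam pairs, were far less abundant than Vcam1. Icam1 (chromosome 9, 21015985 to 21028817, + strand), which NF-kB raises in inflamed endothelium, was at 32.1, 35.4 and 38.9 CPM in the sensitive and at 44.5, 24.8 and 24.1 CPM in the resistant libraries, in replicate order. Resistant replicate 1 was the highest of all 6 and the other resistant libraries the lowest. Its log2 fold change was -0.19 with a standard error of 0.29 and a 95% interval of -0.87 to 0.49. Icam2 (chromosome 11, 106377656 to 106388075, - strand), carried by resting endothelium, was at 7.18, 17.1 and 7.19 CPM in the sensitive and 7.47, 4.11 and 5.33 CPM in the resistant libraries. Sensitive replicate 2 was the high value. The log2 fold change of Icam2 was -0.89 with a standard error of 0.45 (edgeR quasi-likelihood test, unadjusted p = 0.0901, adjusted p = 0.940), and -0.36 without that library.

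Promoter sequences from RefSeq (GRCm38.p6) matched 5 of the 10 genes, and those of Icam1 and Sele are shown because both are known NF-kB targets in endothelium yet differed in level, with Icam1 at 5.59 FPKM or more and Sele at 0.961 FPKM or less in every library. The 250 bases before the start sites are given 5′ to 3′, and capitals mark GGNNNTTCC, a form of the NF-kB site, the letters GAGGAA, and TATAAA, the TATA box, each on either strand.
Icam1, chr9:21015690-21015939, + strand: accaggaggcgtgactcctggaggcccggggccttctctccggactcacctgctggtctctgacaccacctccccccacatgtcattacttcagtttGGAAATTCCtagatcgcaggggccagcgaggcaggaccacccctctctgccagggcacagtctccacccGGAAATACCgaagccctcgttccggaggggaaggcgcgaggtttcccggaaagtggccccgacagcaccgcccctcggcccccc
Sele, chr1:164047984-164048233, + strand: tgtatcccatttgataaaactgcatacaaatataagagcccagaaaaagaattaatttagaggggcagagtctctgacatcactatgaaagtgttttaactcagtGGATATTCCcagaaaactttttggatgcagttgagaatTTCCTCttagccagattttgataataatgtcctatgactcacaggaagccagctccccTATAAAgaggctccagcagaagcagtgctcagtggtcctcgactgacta
Icam1 held GGNNNTTCC at position -153, where both strands match the pattern, and at -84 on the opposite strand. It held TATAAA at position 14, after the RefSeq start. Sele held GGNNNTTCC at -145, GAGGAA at -107 on the opposite strand and TATAAA at -49. GGNNNTTCC and TATAAA were found in 18.5% and 13.6% of the 32851 promoters, and no binding was measured here.

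The selectins were at the lower end of the range. Sele (chromosome 1, 164048234 to 164057677, + strand), made by activated endothelium, had 40, 0 and 44 counts in the sensitive and 58, 9 and 44 counts in the resistant libraries, in replicate order. The 2nd library of each group was the low one, and the 0 of sensitive replicate 2 allows a level of up to 0.195 CPM. Its log2 fold change of 0.38 had a standard error of 1.21 and was -0.19 without that library. Selp (chromosome 1, 164115264 to 164150026, + strand), stored in endothelium and platelets, was at 12.1, 3.44 and 2.20 CPM in the sensitive and 3.85, 3.18 and 3.18 CPM in the resistant libraries. Sensitive replicate 1 alone was high, the other 5 libraries lay between 2.20 and 3.85 CPM, and the log2 fold change of -0.79 (standard error 0.65) was 0.28 without it.

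Across the group, 9 of the 10 genes passed the filter on low counts and none of them passed an adjusted p of 0.05 in edgeR's quasi-likelihood test, as was the case for all 15474 genes tested (0 genes, 0%; DESeq2 gave 24 genes, none of the 10 among them). At an unadjusted p under 0.05 there was 1 of the 9, Vcam1, where the background was 476 genes, or 3.08%, and 2.54% for genes lower in the resistant group. The log2 fold change was below 0 for 6 of the 9 (Itgam, Itgax, Icam1, Icam2, Vcam1 and Selp) and above 0 for 3 (Itgb2, Itgal and Sele), against 49.2% of all genes tested below 0. The median of the 9 was -0.32 and that of all genes 0.0078. Among the 9, Vcam1 was the one whose libraries did not overlap between the groups, where this held for 9.02% of all genes tested, and for 4.38% in the direction of lower in resistant. With 1 library left out, fewer libraries have to separate and the background is higher. The count was again 1 of 9 without sensitive replicate 2, against 19.4% of all genes tested, and 3 of 9 without sensitive replicate 3 or without resistant replicate 1, against 26.4% and 23.5%. The background counts cover genes that passed the filter, so Itgad is not read against them.

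**Figure D3:**
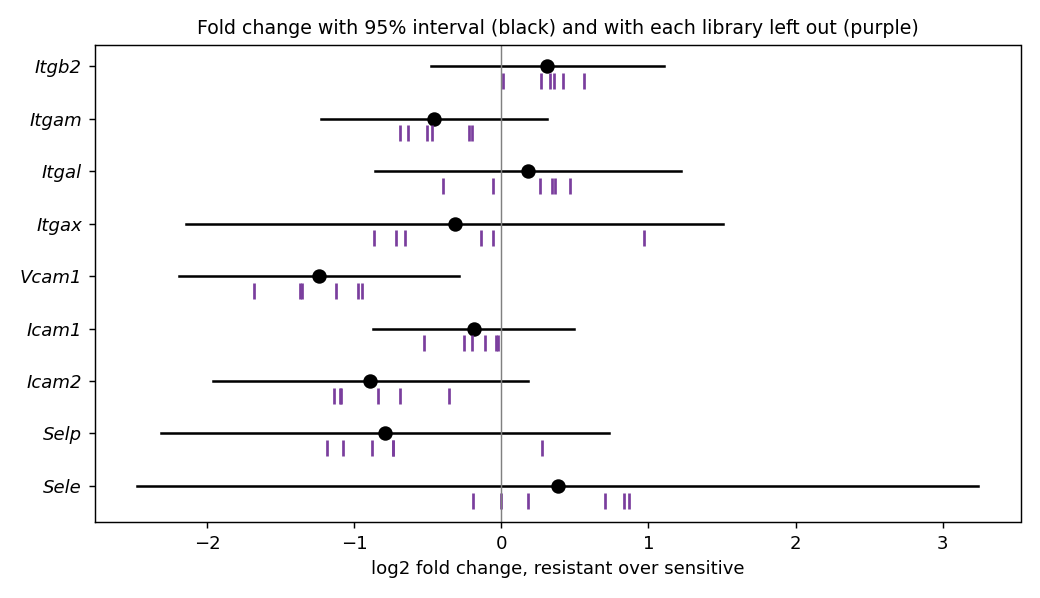
Log2 fold change, resistant over sensitive, of the 9 genes tested, with black dots for all 6 libraries, black lines for the 95% interval and purple ticks for each library left out in turn. The Vcam1 interval, -2.19 to -0.29, lies below 0, while the ticks of Itgal, Itgax, Selp and Sele fall on both sides of 0.

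Other genes of leukocyte adhesion were read from lists chosen by role, and none of their genes had an adjusted p under 0.05 (edgeR quasi-likelihood test). Of other counter-receptors, 6 of 8 were tested, 2 higher and 4 lower in the resistant group, with a median log2 fold change of -0.01. Cd47, the ubiquitous signal that restrains phagocytosis, was at 279 to 445 CPM and led this list, followed by the adhesion molecules Alcam and F11r. Jam2, a junctional molecule of endothelium, was at 7.18, 8.83 and 4.06 CPM in the sensitive and 2.27, 1.08 and 1.33 CPM in the resistant libraries. It was lower in every resistant library, with a log2 fold change of -2.09, a standard error of 0.48 and an unadjusted p of 0.00323 (adjusted p = 0.940). Icam4 was at 0 in all libraries.

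Of the other integrin subunits 16 of 18 were tested, 10 higher and 6 lower, with none at an unadjusted p under 0.05 and a median log2 fold change of 0.22. Itgb1, the partner of Itga4 and of many other alpha subunits, led the list at 352 to 618 CPM, with a mean of 114 FPKM. Itgb7, whose pair with Itga4 homes lymphocytes to the gut, was at 160, 338 and 159 CPM in the sensitive and 81.7, 210 and 109 CPM in the resistant libraries, and Itgb5 and Itga5 completed the leading 4. Of 15 selectins, selectin ligands and enzymes that build them, 4 were higher and 11 lower, with a median of -0.28. B4galt1, Cd44 and Glg1, among the leading genes, had log2 fold changes of -0.11, 0.03 and 0.30.

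Genes of inside-out activation, by which signals within a leukocyte open its integrins, numbered 20 tested of 21, with 7 higher, 13 lower and a median of -0.08. Talin (Tln1) and kindlin-3 (Fermt3), which bind the beta subunit tail, were at 425 to 717 and 310 to 433 CPM, and Rap1b and Syk, a small GTPase and a kinase of the pathway, at 578 to 684 and 343 to 526 CPM. The absolute log2 fold change of these 4 was 0.22 or less. Fgr, a Src family kinase of myeloid cells named after its values were seen, was at 115, 109 and 134 CPM in the sensitive and 77.8, 51.9 and 48.3 CPM in the resistant libraries, without overlap (log2 fold change -1.01, standard error 0.24, unadjusted p = 0.00416, adjusted p = 0.940, edgeR). Of 14 NF-kB genes, 8 were higher and 6 lower, with a median of 0.02. Nfkbia, the inhibitor that NF-kB itself induces, was at 377, 416 and 321 CPM in the sensitive and 430, 239 and 228 CPM in the resistant libraries, and like Icam1 was highest in resistant replicate 1 and lowest in the other resistant libraries. Tnfrsf1b, Tnfrsf1a and Rela, the other leading genes of this list, did not share that order. Their log2 fold changes were 0.12, 0.23 and 0.03. Tnf, at 3.29 to 12.5 CPM, was the gene of this list with an unadjusted p under 0.05 (log2 fold change -1.04, unadjusted p = 0.0445, adjusted p = 0.940, edgeR). Of iC3b and other beta2 ligands, 8 were tested, with 5 higher, 3 lower and a median of 0.40. C3, the source of iC3b, was at 380, 339 and 246 CPM in the sensitive and 355, 129 and 71.0 CPM in the resistant libraries, and Ccn2, Ccn1 and Fgb followed. Fga, a fibrinogen chain made by hepatocytes, had an unadjusted p of 0.0443 (log2 fold change 1.63, adjusted p = 0.940, edgeR), with resistant replicate 2 at 28.8 CPM and the other 5 libraries at 3.18 to 6.66 CPM.

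Markers of the cells that could carry these genes also differed between libraries. The 12 pan-endothelial markers summed to 414, 309 and 514 CPM in the sensitive and 408, 76.6 and 423 CPM in the resistant libraries, in replicate order, with 1 higher, 11 lower and a median log2 fold change of -1.28. Of these, 5 had an unadjusted p under 0.05 (Kdr, Tek, Emcn, Erg and Egfl7, all lower) and none an adjusted one. The same 5 did not overlap between the groups, where this held for 9.02% of all genes tested. The sum leans on Cdh5, the marker with the highest mean. Cdh5 was at 183, 48.0 and 220 CPM in the sensitive and 203, 18.3 and 230 CPM in the resistant libraries. Resistant replicate 2, lowest in this sum, was also lowest for Vcam1 and Icam2, and sensitive replicate 3 was highest in this sum and for Vcam1. The other libraries were not all ordered alike. Resistant replicate 3, at 423 CPM in this sum, had Vcam1 at 510 CPM. Sensitive replicate 2, at 309 CPM in this sum, had Vcam1 at 1157 CPM and the highest Icam2, 17.1 CPM. The 16 macrophage and Kupffer cell markers summed to 23321 to 42384 CPM in the sensitive and 26816 to 30402 CPM in the resistant libraries, with 8 higher, 8 lower and a median of -0.02. The 12 neutrophil markers, led by S100a9, S100a8 and Mmp8, summed to 5024, 7995 and 653 CPM in the sensitive and 2031, 1588 and 334 CPM in the resistant libraries, and all 12 had a log2 fold change below 0 with a median of -1.68. Vcam1 was highest in sensitive replicate 3, where this sum was 653 CPM.

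The remaining marker lists were read in the same way. Of the LSEC markers 3 were higher and 8 lower, with sums of 690 to 1187 CPM in the sensitive and 636 to 1012 CPM in the resistant libraries. The 8 dendritic cell markers, led by Batf3, Clec9a and Zbtb46, summed to 29.5 to 57.2 CPM and 24.7 to 32.7 CPM in these groups, with Cd209a at 0. The 12 lymphocyte markers, led by Cd4, Cd3d and Gzma, summed to 15.7 to 27.7 CPM and 10.2 to 20.1 CPM, with Klrb1c at 0. Platelet and megakaryocyte markers summed to 115 to 137 CPM and 86.9 to 436 CPM, most of it Pf4 (427 CPM in resistant replicate 2), with Itga2b and Ppbp next and Gp1bb at 0. Of these leading genes, Ppbp was highest in sensitive replicate 1, at 7.42 CPM, as was Selp. Pf4 was highest in resistant replicate 2 and Itga2b in sensitive replicate 2, at 26.8 CPM, where Selp was at 3.18 and 3.44 CPM. Stellate cell and fibroblast markers, led by Col1a1, Acta2 and Col1a2, summed to 86.7 to 167 CPM and 89.3 to 368 CPM. The part of any of these cells in the values of the 10 genes was not tested.

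**Figure D4:**
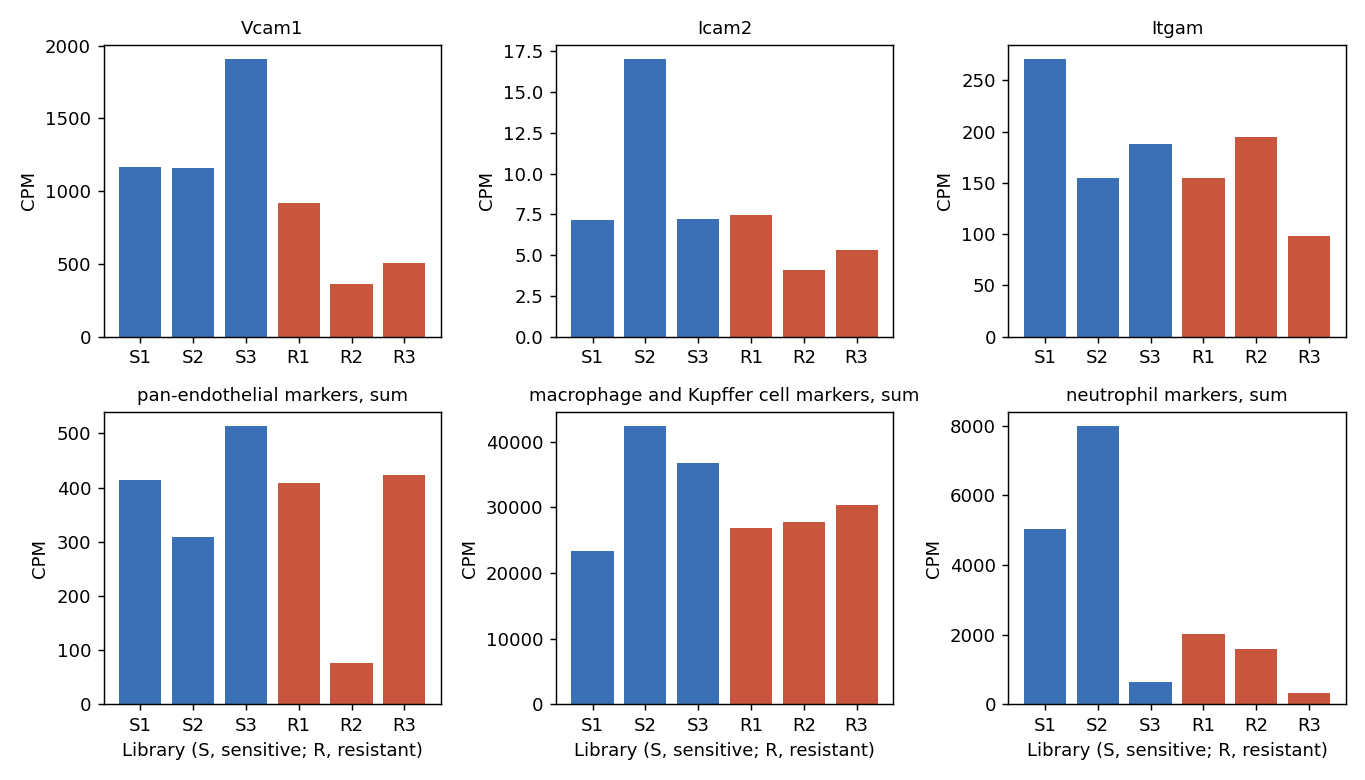
CPM of Vcam1, Icam2 and Itgam (top) and summed CPM of the pan-endothelial, macrophage and Kupffer cell, and neutrophil markers (bottom) in each library, S1 to S3 sensitive and R1 to R3 resistant; each axis has its own scale from 0. Resistant replicate 2 has the lowest Vcam1 (365 CPM), Icam2 (4.11 CPM) and endothelial sum (76.6 CPM). Icam2 is highest in sensitive replicate 2 (17.1 CPM), where the endothelial sum is 309 CPM, and the neutrophil sum spans 334 to 7995 CPM.

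The genes most like 4 of the members in log2 CPM over the 6 libraries were found among 9455 genes with an average log2 CPM of at least 3, as a description of libraries that share depth and composition. For Itgb2 they were Nup133, Gga2 and Stx7, each with a Pearson r of 0.998. For Itgam they were Sfxn2 (0.990), Slc35d2 (0.977) and Cmpk2 (0.967). Icam1 was followed most closely by Dmpk (0.991), Sod2 (0.985) and Dnase1l3 (0.975), and Vcam1 by Paqr9 (0.994), Glul (0.990) and Tmem127 (0.979). The pattern of Itgb2 is mostly that of 1 low library, sensitive replicate 2.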

How the data were processed

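LSEC libraries, 3 from bevacizumab-sensitive and 3 from bevacizumab-resistant xenografts, were grouped by their titles. The authors aligned reads with HISAT2 2.0.5, counted them on genes with featureCounts 1.5.0-p3 and deposited counts without normalization and FPKM values. The submitters' processing notes name mm9, and the files hold no coordinates, so positions are of GRCm38 (GENCODE M21), matched by Ensembl identifier. Whether counting used strand is not given in the sources used here. A table of the authors' own DESeq2 comparison (group means, fold changes and p-values) was not used.

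The groups were compared on the counts with edgeR 4.0.16 in R 4.3.3 (filterByExpr, TMM, robust quasi-likelihood test, two-sided, no covariate), with Benjamini-Hochberg adjustment over 15474 genes and a threshold of 0.05. Standard errors are those implied by the F statistic. CPM uses TMM-scaled library sizes. FPKM was used as deposited, for levels between genes and shares, with a pseudocount of 0.1 on the log scale. Intervals and limits of 3 counts cover counting error only, since reads carried no molecular identifiers. Scripts were tested on simulated data. No pair of libraries in a group differed by as little as sampling noise.

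The genes named are the 10 members, up to 4 genes of each pathway list and 3 of each marker list with the highest mean CPM, markers at 0 in every library, and for Itgb2, Itgam, Icam1 and Vcam1 the 3 genes with the highest Pearson r. Itga4, Mcam, Fgr, Tnf, Fga, Kdr, Tek, Emcn, Erg and Egfl7 fall outside this rule and were named after their values were seen. One gene that the rule would name is not reported here. The members and lists were chosen with earlier results of these data known. Alternatives were DESeq2 1.42.0, limma-voom (limma 3.58.1), other scalings and filters, a block for the replicate number and leaving out each library. Figures were drawn with matplotlib.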

Additional observations from a re-analysis of the deposited data

How the results depend on the processing

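Of 116 log2 fold changes of the 9 tested genes under the alternatives, 109 agreed in direction and in their side of the threshold, 7 changed direction and none passed an adjusted p of 0.05. With the replicate block, the log2 fold change of Itgax was 0.021 and the count of genes at an unadjusted p under 0.05 was 467, with 0 at an adjusted p. The labels do not say whether equal numbers pair the libraries. The deviations of same-numbered libraries correlated at -0.00093, 0.034 and 0.194, which with 3 libraries per group cannot settle it. The other changes of direction came from leaving out 1 library. The log2 fold change then ran from -0.86 to 0.97 for Itgax, turning without sensitive replicate 3, and from -1.18 to 0.28 for Selp, turning without sensitive replicate 1. It ran from -0.40 to 0.47 for Itgal and from -0.19 to 0.87 for Sele. Both turned without sensitive replicate 2 (-0.058 and -0.19) and without resistant replicate 1 (-0.40 and -0.0004). For Sele, limma-voom gave 1.23 and the replicate block 0.97, against 0.38, and for Selp they gave -0.43 and -0.41, against -0.79. DESeq2 gave 24 genes at an adjusted and 732 at an unadjusted p under 0.05, and no filter on low counts gave 2 and 2036. Leaving out 1 library at a time gave 0 genes at an adjusted p and between 167 (without resistant replicate 3) and 1056 (without sensitive replicate 3) at an unadjusted p, with 245 without resistant replicate 2. The number of tested members whose groups do not overlap was 1 to 3 in those settings (2 without resistant replicate 2), where the share of all genes tested was 12.6% to 26.4%. The order by mean CPM moved 2 genes, Itgb2 and Vcam1. Itgad could be fitted with no filter alone, with a log2 fold change of -3.70 and an adjusted p of 0.720 that depend on the prior count. The shares of the alpha subunits stayed within 1 SD. The cause of these changes was not tested. At these depths 3 counts, the limit a count of 0 allows, are 0.136 to 0.195 CPM, which bears on Itgad and on the 0 of Sele.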
